A study of Rattus norvegicus with 42 samples.

Results

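A set of 31 genes for lysosomal hydrolases, lysosomal membrane proteins and their regulators was followed through the retinas of 6 groups of rats. The genes were chosen by name, for their place in the lysosomal pathway, with earlier results of these data known. All 31 were found among the 32623 genes of the count file, and all 31 passed the filter on low counts, as did 18094 genes in all. By role they are 5 membrane proteins (Lamp1, Lamp2, Mcoln1, Cd63, Laptm5), 9 proteases (the cathepsins Ctsa, Ctsb, Ctsc, Ctsd, Ctsh, Ctsl, Ctss and Ctsz, and Tpp1) and 8 glycosidases and sulfatases (Gla, Glb1, Gusb, Hexa, Naglu, Sgsh, Ids, Gaa). The others are 4 genes of lipid handling (Npc2, Psap, Lipa, Asah1), the proton pump subunit Atp6v1a, progranulin (Grn), the transcription factors Tfeb and Tfe3, and the autophagy receptor Sqstm1.

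The study set light damage of the retina against treatment with nanoceria, cerium oxide particles that can take up reactive oxygen species. All animals were adult rats, and polyA RNA of the whole retina was sequenced. Control animals were untreated, and light damage animals were exposed to 15000 lux for 24 h. The vehicle and nanoceria groups received vehicle or 1 mM nanoceria into the vitreous of the eye without that light, and the vehicle plus light and nanoceria plus light groups received the same injections and the light. The sources used here do not give strain, age in weeks, or the time from injection or light to dissection. The counts came from 5 libraries each of control, vehicle, vehicle plus light and nanoceria plus light, 7 of light damage and 4 of nanoceria. Levels are given as CPM, counts relative to the library size, scaled by the TMM method of edgeR, which allows a gene to be compared between libraries but not with another gene, because gene length is not taken into account.

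Lysosomes are acidic compartments in which hydrolases break down protein, sugar chains and lipid that arrive by endocytosis, phagocytosis and autophagy. A proton pump, the V-ATPase, keeps them acidic, and TFEB and TFE3, when they enter the nucleus, bind E-box motifs near the start of many lysosomal genes and raise their transcription as a group. In the retina, lysosomes are best known in the pigment epithelium, which digests shed photoreceptor outer segments, and in microglia, which engulf dying cells; whole-retina RNA mixes all cell types, and in such bulk samples fewer cells of a type and less RNA per cell cannot be told apart.

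The E-box CACGTG, which reads the same on both strands, was searched in the 300 bases around each start site (250 before it and 50 after) in the RefSeq promoter table for build GRCr8. The table held 27 of the 31 genes; Ctsb, Hexa, Psap and Asah1 had no entry. The motif was present in 7 of 27 windows, 25.9%, against 6.42% of 33469 windows of all genes and 17.2% of 58 windows of other lysosomal and V-ATPase genes. Lamp1 held 5 copies, Ctsd and Mcoln1 2 each, and Cd63, Glb1, Gaa and Sgsh 1 each. The longer form TCACGTG, searched on both strands and overlapping the first motif, was in 6 of 27 windows (22.2%, against 3.2% of all). It was in 13.8% of the 58 windows of other lysosomal and V-ATPase genes. Among the genes with an E-box, Cd63 was the one without this longer form. A still longer palindrome built around the E-box was also searched. It was in 0 of 27 windows, against 0.233% of all and 3.45% of those 58 windows. A match describes the letters of these windows and not a bound site. The stretches of Lamp1 and Ctsd, which hold several copies, and of Cd63, whose level changed with light, are printed 5′ to 3′ on the gene's strand, with each E-box in capitals. Their places in GRCr8 are chr16:83075076-83075266 (minus strand) for Lamp1, chr1:206968822-206968998 (minus strand) for Ctsd and chr7:1921934-1921979 (plus strand) for Cd63, and all lie upstream of the start site.
Lamp1: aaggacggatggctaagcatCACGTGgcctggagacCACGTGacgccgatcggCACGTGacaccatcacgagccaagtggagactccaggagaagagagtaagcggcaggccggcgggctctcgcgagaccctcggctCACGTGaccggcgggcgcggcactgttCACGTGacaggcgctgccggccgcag
Ctsd: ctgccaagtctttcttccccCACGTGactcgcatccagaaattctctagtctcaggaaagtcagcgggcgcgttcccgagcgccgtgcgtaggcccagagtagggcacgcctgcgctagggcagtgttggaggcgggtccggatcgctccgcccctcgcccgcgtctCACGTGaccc
Cd63: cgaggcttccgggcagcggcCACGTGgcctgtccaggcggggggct

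Total counts per library lay between 25158407, in light damage 1, and 182162368, and the lowest count of any of the 31 genes in any library was 30, for Sgsh. Light damage 4 and 7, and vehicle 4 and 7, were nearer to each other than any other replicates (SD of the log2 ratio over genes 0.151 and 0.186, against at least 0.355), although they differed by more than counting noise. They were kept as separate samples, and with each pair summed the mean response to light had 11 calls and not 12, and the response after vehicle 1 and not 3. Y-linked transcripts were high in 16 of 31 libraries, from 1 of 5 in vehicle to 4 of 5 in control, and a term for sex changed no call of a lysosomal gene. The labels call the libraries biological replicates, and the p-values measure the spread between them. If a near-identical pair came from the same animal, the main p-values would treat its libraries as separate animals. Whether that was so was not tested.

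Marker transcripts of several cell types differed between the groups. The rod marker Gnat1, the transducin alpha subunit of rods, was 7544 to 15690 CPM in control, 10150 to 13730 CPM in vehicle and 8410 to 14760 CPM in nanoceria. With light it was 689 to 2363 CPM without injection, 492.7 to 1538 CPM after vehicle and 303 to 2360 CPM after nanoceria, so no light-exposed library reached the range without light. Gnb1, a beta subunit of transducin, was lower with light in the same 3 comparisons, with log2 fold changes of -1.92, -2.04 and -2.01 (edgeR adjusted p = 1.58e-06, 5.44e-06 and 1.6e-05). The summed counts of 20 microglia and macrophage genes were lowest in control, at 0.0284% to 0.0390%, and lay at 0.0396% to 0.0605% in vehicle and 0.0536% to 0.0790% in nanoceria. With light they were 0.0384% to 0.0756% without injection, 0.0425% to 0.0809% after vehicle and 0.0334% to 0.0668% after nanoceria. None of the first 3 genes of that list was at 0 in any library: Aif1 lay between 6.00 and 20.2 CPM, Cx3cr1 between 4.39 and 14.1 CPM and Csf1r between 57.4 and 132 CPM. Of the markers of neutrophils, cells that also carry lysosomal enzymes, Elane reached at most 0.0218 CPM and Mpo at most 0.0623 CPM. Other genes of the neutrophil list rose in light damage, as given below. Of the other marker lists, light damage against control had 1 higher and 4 lower of 11 Muller glia genes, 0 higher and 4 lower of 10 pigment epithelium genes, and 0 called of 18 lens genes (edgeR; 1 at an unadjusted p under 0.05). Of 6 neutrophil genes tested 3 were higher (Csf3r, Camp and Cxcr2), and all 6 had a positive change, with a median of 1.83. Of 5 blood genes 1 was higher. The part of these shifts in the changes of the lysosomal genes was not tested.

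Light raised a few lysosomal genes, above all the protease Ctsz and the tetraspanin Cd63, and left most of the set without a detected change. Against control, light damage raised 5 genes (Ctsz, Cd63, Laptm5, Ctsl and Tfe3) and lowered 1 (Tpp1) by edgeR's quasi-likelihood test at an adjusted p under 0.05. That is 6 of 31 genes, 19.4%, where 22.5% of all genes tested were called, 11.9% higher and 10.6% lower. After vehicle, light raised 3 (Ctsz, Cd63 and Tfe3; 9.68%, against 16.8% of all genes, 9.67% higher and 7.17% lower), and after nanoceria it raised Tfe3 and lowered Naglu (6.45%, against 13.9% of all genes, 8.15% higher and 5.78% lower). Higher calls alone were 16.1%, 9.68% and 3.23% of the set in the 3 comparisons. With library size alone as the scaling, the calls were 5 higher and 0 lower in light damage, and 2 higher and 0 lower after nanoceria, where the size factors of DESeq2 gave 0 higher and 1 lower.

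The median log2 fold change of the 31 genes was -0.03 in light damage against control, 0.09 after vehicle and 0.01 after nanoceria, beside medians of -0.01, 0.02 and 0.04 over all genes tested. The 3 responses share no libraries. Tfe3 was called higher in all 3, Ctsz and Cd63 in 2 of 3, and 24 genes in none. The same counts over all genes were not taken. Of the 31 genes, 16 had the same sign in all 3 responses, 10 positive and 6 negative, which is 51.6%, against 59.7% of all genes. Of the 25 genes not called in light damage against control, 24 had a 95% interval within a 1.5-fold change in either direction, the exception being Glb1. After vehicle the number was 24 of 28 and after nanoceria 26 of 29. The plot of log2 fold changes with light shows this layout gene by gene.

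**Figure D1:**
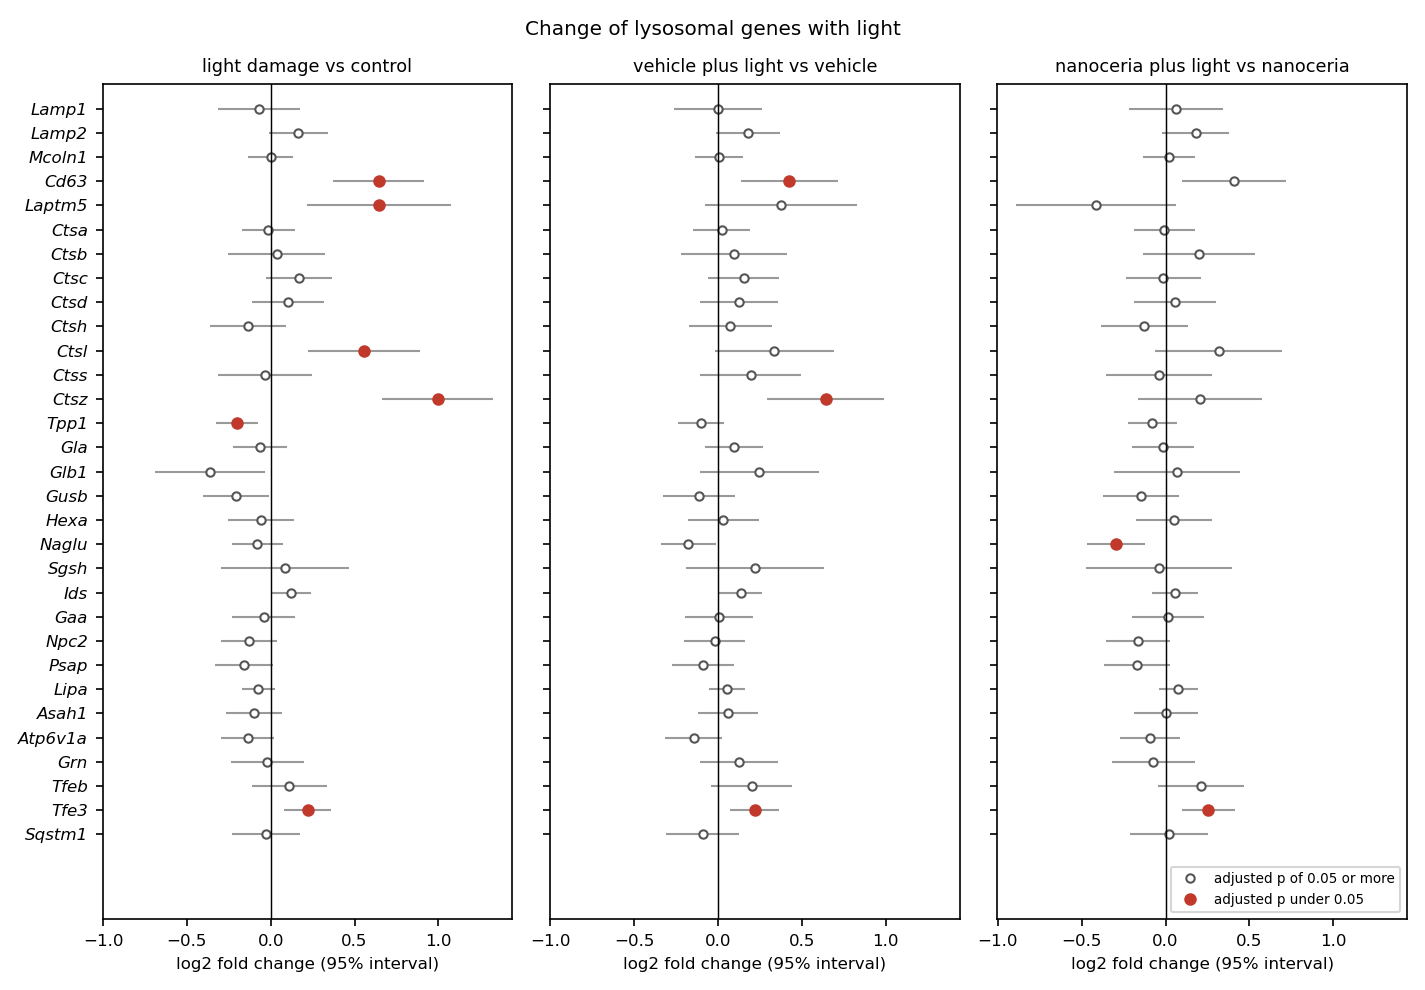
Log2 fold change with its 95% interval (x axis) for the 31 lysosomal genes (y axis, by role) in the 3 comparisons of light with no light; filled red points have an edgeR adjusted p under 0.05. Most intervals cross 0, and the points farthest to the right are Ctsz (1.00 in light damage) and Cd63 and Laptm5 (0.64 and 0.65).

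Averaged over the 3 responses, which uses all 31 libraries, light raised 7 genes and lowered 5, 38.7% of the set, against 37.1% of all genes (20.5% higher and 16.6% lower). The genes that rose were Ctsz, Cd63, Ctsl, Tfe3, Tfeb, Lamp2 and Ids, and those that fell were Naglu, Gusb, Psap, Tpp1 and Atp6v1a. The changes were small in most: the lower genes fell by 0.13 to 0.18 on the log2 scale, and of the higher ones Ctsz, Cd63 and Ctsl were at 0.40 or above. The calls of the 5 lower genes did not hold with library size alone as the scaling. Those of Ctsz, Cd63, Ctsl, Lamp2 and Tfe3 held under each of the 7 other settings. With library size alone, which put the median of all genes at 0.09 and not 0.02, 9 genes were called higher and 0 lower. The 5 lower genes then had log2 fold changes of -0.05 to -0.11 (edgeR adjusted p from 0.083 to 0.447).

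Among the membrane proteins, Cd63, a tetraspanin of late endosomes, lysosomes and exosomes, was raised by light. Its level was 274, 171, 216, 188 and 164 CPM in control, and lay between 230 and 378 CPM, with a median of 317 CPM, in light damage. Control 1 was the highest control and stood above light damage 2, the lowest of its group, while the other 4 controls lay under every light damage library. The log2 fold change was 0.64 ± 0.13 (SE; 1.56-fold, edgeR adjusted p = 0.000655), and leaving out any 1 library kept the call (edgeR adjusted p of at most 0.00361).

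In vehicle the level of Cd63 was 210, 195, 181, 207 and 187 CPM, and in vehicle plus light 258, 283, 213, 340 and 221 CPM. These groups did not overlap, as in 3 of the 31 genes after vehicle (Cd63, Naglu and Sgsh) and in 13.7% of all genes. The change was 0.42 ± 0.14 (edgeR adjusted p = 0.0377). It no longer passed when vehicle 2, 3, 4 or 7, or 1, 2 or 4 of vehicle plus light, was left out (edgeR adjusted p from 0.0526 to 0.15), with the size factors of DESeq2 (0.0524) and with near-identical pairs summed (0.0665). In nanoceria the level was 208, 231, 183 and 268 CPM, and in nanoceria plus light 277, 292, 294, 364 and 252 CPM. Nanoceria 5 overlapped with nanoceria plus light 5. The change of 0.41 ± 0.15 did not pass (edgeR adjusted p = 0.0708), and it did so with library size alone (0.0419) and without nanoceria 5 (0.0443) or nanoceria plus light 5 (0.0496). The response of Cd63 after vehicle differed from that without injection by -0.22 ± 0.19 (edgeR adjusted p of the interaction 0.982), and that after nanoceria from that after vehicle by -0.02 ± 0.21 (edgeR adjusted p = 1).

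Laptm5, a lysosomal membrane protein of blood-derived cells and microglia, was 11.4, 11.7, 14.8, 15.7 and 12.3 CPM in control, and between 11.2 and 26.0 CPM, with a median of 22.1 CPM, in light damage. Light damage 2 was the lowest library of both groups, and the other 6 light damage libraries stood above every control. The change was 0.65 ± 0.21 (1.57-fold, edgeR adjusted p = 0.0246), and the call ended without control 1 or 2 or light damage 5 (edgeR adjusted p from 0.0508 to 0.0661). Light damage 2 also had the lowest share of microglia and macrophage counts of its group, 0.0384%. That list had 11 of 20 genes higher and 2 lower, P2ry12 and Tmem119, and its part in the change was not tested. The share of the neutrophil list was also the lowest of the group in light damage 2, 0.000324%. Its part was not tested either. In vehicle, Laptm5 was 18.3, 25.4, 17.6, 14.5 and 15 CPM, and in vehicle plus light 21.6, 37.8, 19.1, 22.1 and 17.3 CPM. The high library, vehicle plus light 2, also had the highest microglia and macrophage share, 0.0809%. It had the highest share of the neutrophil list, 0.00215%, and the highest total counts as well. The part of each in the high value was not tested. The change after vehicle was 0.38 ± 0.22 (edgeR adjusted p = 0.284), and the microglia and macrophage list had 5 genes higher and 1 lower.

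Lamp2, which with Lamp1 makes up much of the protein of the lysosomal membrane, was 130 to 148 CPM in control and 132 to 189 CPM in light damage. It had changes of 0.16, 0.18 and 0.18 with light in the uninjected, vehicle and nanoceria animals, none of them called alone. Their mean, 0.17 ± 0.05, passed (edgeR adjusted p = 0.0106), and it did so in every fit with 1 library left out and under each of the 7 other settings. Lamp1, with the 5 E-boxes above, had changes of -0.07, 0.00 and 0.06 and a mean of 0.00 ± 0.07 (95% interval -0.15 to 0.15). Mcoln1, the calcium channel TRPML1 through which lysosomes release calcium, had a mean change of 0.01 ± 0.04 (95% interval -0.07 to 0.09). Of the 7 genes with an E-box in the window, Cd63 was the one called in any single response to light. Of all 31 genes, 7 were called in at least 1 of these responses. Apart from Cd63 these were Ctsz, Laptm5, Ctsl, Tfe3, Tpp1 and Naglu, whose windows held no E-box. Whether the calls depend on the motif was not tested.

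**Figure D2:**
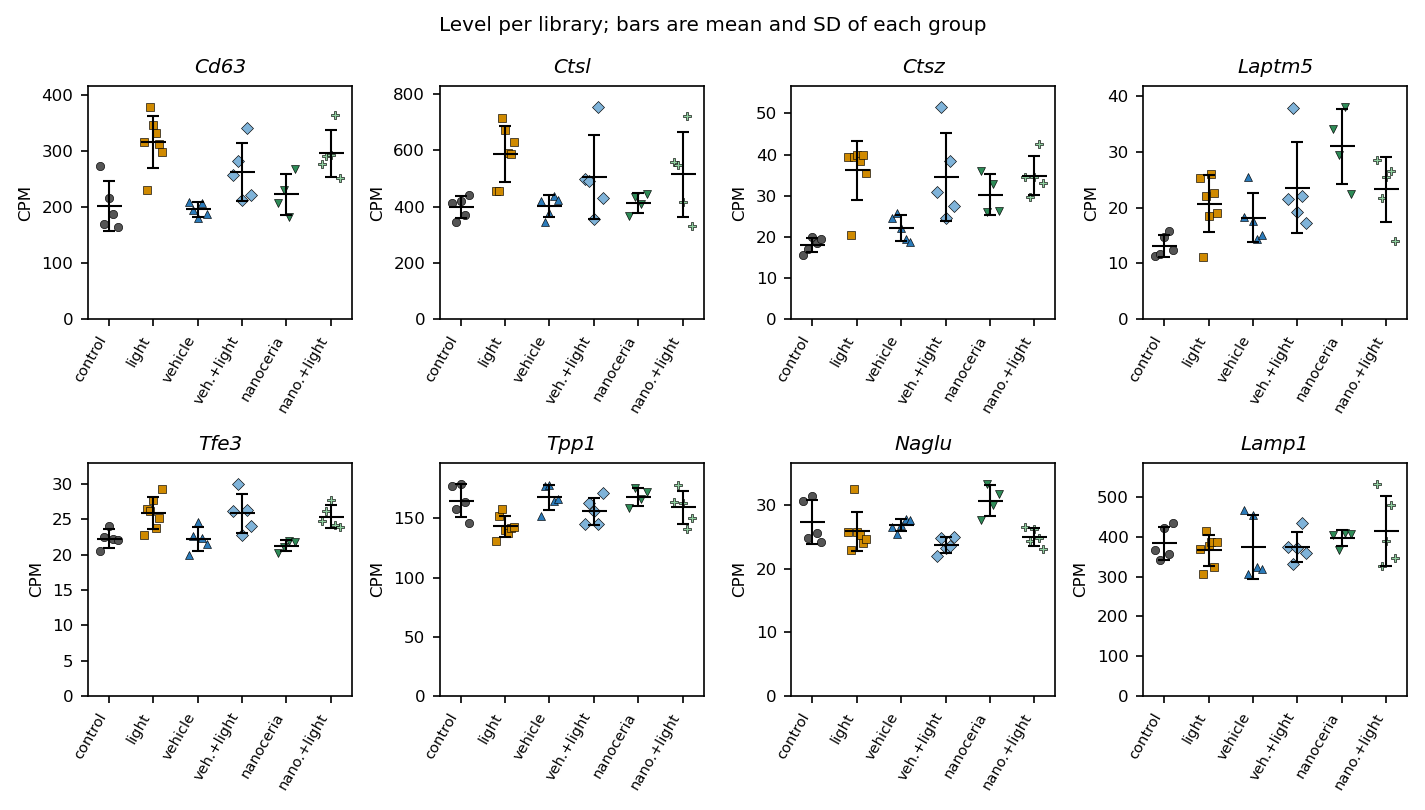
Level in CPM (y axis, from 0) of 8 lysosomal genes in each library of the 6 groups (x axis); bars are the mean and SD of each group. Light damage 2 is the low light damage library in Cd63 (230), Ctsz (20.4) and Laptm5 (11.2), and nanoceria libraries are the highest group for Laptm5.

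Of the proteases, Ctsz, a carboxypeptidase of myeloid and glial cells, had the largest response of the set. Its level was 15.7, 17.0, 19.9, 18.5 and 19.4 CPM in control, and between 20.4 and 39.9 CPM, with a median of 39.4 CPM, in light damage. The groups did not overlap, as in 2 of the 31 genes (Ctsz and Ctsl) and in 11.3% of all genes; light damage 2, at 20.4 CPM, lay just above the controls and the other 6 between 35.5 and 39.9 CPM. The change was 1.00 ± 0.16 (2.00-fold, edgeR adjusted p = 4.15e-05), and it stayed called with any 1 library left out (edgeR adjusted p of at most 0.000295). The low library, light damage 2, is the one with the lowest microglia and macrophage share of its group. It also had the lowest neutrophil share of that group. The part of these lists in the change was not tested.

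In vehicle, Ctsz was 24.6, 25.7, 22.1, 19.5 and 18.8 CPM, and in vehicle plus light 30.9, 51.5, 24.5, 38.3 and 27.6 CPM. Vehicle plus light 3 lay within the range of vehicle, and vehicle plus light 2 was again the highest. The change was 0.64 ± 0.17 (edgeR adjusted p = 0.00879), and 0.45 without vehicle plus light 2, where the call ended (edgeR adjusted p = 0.0559). In nanoceria it was 35.9, 26.2, 32.9 and 26.2 CPM and in nanoceria plus light 34.5, 29.8, 34.5, 42.5 and 33.1 CPM, overlapping groups with a change of 0.20 ± 0.18 (edgeR adjusted p = 0.532). With light after nanoceria, the microglia list had 1 gene higher and 4 lower. The response of Ctsz differed by -0.36 ± 0.23 between vehicle and uninjected animals and by -0.44 ± 0.25 between nanoceria and vehicle (edgeR adjusted p of the interactions 0.95 and 1), so a difference between the 3 responses was not shown.

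Ctsl, an endopeptidase found in most cells, was 414, 347, 419, 369 and 443 CPM in control and between 455 and 712 CPM, with a median of 590 CPM, in light damage. Every light damage library lay above every control. The change was 0.56 ± 0.16 (1.47-fold, edgeR adjusted p = 0.0129) and stayed called with any 1 library left out (edgeR adjusted p of at most 0.0391). In vehicle it was 421, 344, 378, 438 and 424 CPM, and in vehicle plus light 498, 491, 357, 752 and 430 CPM. In nanoceria it was 365, 434, 408 and 445 CPM, and in nanoceria plus light 559, 549, 415, 722 and 330 CPM. Both injected groups with light held libraries inside or under the range without light, vehicle plus light 3 and nanoceria plus light 5 being the lowest. The changes were 0.33 ± 0.17 and 0.32 ± 0.18 (edgeR adjusted p = 0.207 and 0.29). The mean of the 3 responses was 0.40 ± 0.10 (edgeR adjusted p = 0.00198).

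Tpp1, a tripeptidyl peptidase lost in a childhood neuronal ceroid lipofuscinosis, was 177, 158, 179, 164 and 146 CPM in control and between 131 and 158 CPM, with a median of 142 CPM, in light damage. Control 2 and 6 lay inside the range of light damage. Its log2 fold change was -0.20 ± 0.06 (edgeR adjusted p = 0.0183), and the call ended without control 1 or 4 or light damage 1 (edgeR adjusted p from 0.0645 to 0.0694) and with library size alone (-0.13, edgeR adjusted p = 0.301). After vehicle and after nanoceria the changes were -0.10 ± 0.07 and -0.08 ± 0.07, neither called.

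The other 6 proteases had no call in any comparison, apart from Ctsc and Ctsd in the mean response with library size alone. In light damage against control, Ctsc, which activates serine proteases of granules, had the highest change of the 6, 0.17 ± 0.10 (edgeR adjusted p = 0.234), and Ctsh, an aminopeptidase, the lowest, -0.14 ± 0.11. Ctsd, the main aspartic protease of lysosomes, had a change of 0.10 ± 0.10 and Ctsb, the most abundant cysteine cathepsin of many tissues, of 0.04 ± 0.14. Ctsa, which also protects other hydrolases from breakdown, was at -0.01 ± 0.08. Ctss, the cathepsin of antigen-presenting cells, was 17.9 to 21.6 CPM in control and 14.3 to 25.1 CPM in light damage, a wider range on both sides, with a change of -0.03 ± 0.14.

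The glycosidases and sulfatases, which take sugar chains and their sulfate groups apart one residue at a time, showed 0 calls of 8 in light damage against control (edgeR; 3 at an unadjusted p under 0.05, Glb1, Gusb and Ids). Glb1, the beta-galactosidase used as a senescence stain, had a change of -0.36 ± 0.16 (edgeR adjusted p = 0.106), called without control 1 (0.0429). After vehicle its change was 0.25 ± 0.17. The interaction of 0.61 ± 0.24 was the largest of the set between uninjected and vehicle animals and did not pass (edgeR adjusted p = 0.68). Its level was 27.7, 37.7, 41.1, 37.9 and 51.1 CPM in control and 38.3, 30.6, 37.3, 26.2 and 24.7 CPM in vehicle, and these groups without light overlapped.

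Naglu, an exo-glucosaminidase of heparan sulfate breakdown, was 27.6, 33.4, 30.02 and 31.8 CPM in nanoceria and 26.6, 24.4, 26.3, 24.8 and 23.1 CPM in nanoceria plus light. The groups did not overlap, as in 2 of 31 genes (Naglu and Tfe3) and in 12.6% of all genes. Its log2 fold change was -0.29 ± 0.08 (edgeR adjusted p = 0.0184). It no longer passed without nanoceria 2 or 5 (edgeR adjusted p = 0.0851 and 0.0584), with library size alone (0.0894) and with these groups fitted alone (0.0511). In vehicle it was 26.6, 25.5, 26.9, 27.8 and 27.6 CPM and in vehicle plus light 22.1, 24.9, 23.2, 23.6 and 25.0 CPM, again without overlap (-0.18 ± 0.08, edgeR adjusted p = 0.138). Without injection the groups overlapped: control was 30.7, 24.8, 31.4, 25.7 and 24.2 CPM and light damage 23.0 to 32.5 CPM, with a change of -0.08 ± 0.07. The mean of the 3 responses was -0.18 ± 0.05 (edgeR adjusted p = 0.00212), and it did not pass with library size alone (edgeR adjusted p = 0.083).

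Of the rest of this group, Gusb, beta-glucuronidase, had changes of -0.21, -0.12 and -0.15 in the 3 responses and a mean of -0.16 ± 0.06 (edgeR adjusted p = 0.0403). That call held in 18 of the 31 fits with 1 library left out. It ended without light damage 2 or 6, vehicle 1 or 3, vehicle plus light 1, 2 or 6, nanoceria 1 or 3, or nanoceria plus light 2, 3, 4 or 5 (edgeR adjusted p up to 0.0745). It also ended with library size alone (edgeR adjusted p = 0.295). Ids, the iduronate sulfatase lost in Hunter syndrome, had changes of 0.12, 0.13 and 0.06 and a mean of 0.10 ± 0.04 (edgeR adjusted p = 0.0252), which did not pass with the size factors of DESeq2 (0.0674). The mean changes of Gla, Hexa, Gaa and Sgsh, enzymes lost in Fabry, Tay-Sachs, Pompe and Sanfilippo disease, were 0.01, 0.01, -0.01 and 0.09. Sgsh was the gene of the set with the lowest counts.

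Among the genes of lipid handling, Psap, the precursor of the saposins that present glycolipids to hydrolases, had the one call. Its level was 2001, 1541, 2018, 1659 and 1518 CPM in control and 1474 to 1845 CPM, with a median of 1536 CPM, in light damage, so that the groups overlapped. Its changes were -0.16, -0.09 and -0.17 in the 3 responses, with a mean of -0.14 ± 0.05 (edgeR adjusted p = 0.0343). The call on the mean ended without control 1 or 4, vehicle 2 or 3, vehicle plus light 1 or 4, nanoceria 5 or nanoceria plus light 5 (edgeR adjusted p up to 0.0771), and with the replicate number as a block (0.0527). It also ended with library size alone (edgeR adjusted p = 0.363). Npc2, which carries cholesterol inside the lysosome, had a mean change of -0.10 ± 0.05 (edgeR adjusted p = 0.112; 0.0494 by the Wald test of DESeq2). Lipa, the acid lipase, and Asah1, the acid ceramidase, had mean changes of 0.02 ± 0.03 and -0.01 ± 0.05. Lipa was also the steadiest gene over the 31 libraries, with a highest level 1.29 times the lowest.

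Atp6v1a, the catalytic subunit of the proton pump, was 524, 454, 461, 437 and 362 CPM in control and 390 to 431 CPM in light damage. Its changes with light were -0.14, -0.15 and -0.10, with a mean of -0.13 ± 0.05 (edgeR adjusted p = 0.0366). That call ended without control 1 or 4, vehicle 2 or 3, vehicle plus light 1 or 4, nanoceria 1 or 5, or nanoceria plus light 1 or 4 (edgeR adjusted p up to 0.0713), and with the replicate number as a block (0.0613). It also ended with library size alone (edgeR adjusted p = 0.447). Of 18 other V-ATPase subunits and accessory proteins, 0 rose and 6 fell in the mean of the 3 responses (median -0.05). Whether these falls hold with library size alone was not tested. Over all genes, 20.5% rose and 16.6% fell. Among the 6 were Atp6v0e2, of the membrane sector (-0.53 ± 0.09, edgeR adjusted p = 4.2e-05), and the accessory protein Atp6ap2 (-0.12 ± 0.04, edgeR adjusted p = 0.0138). Grn, a secreted glycoprotein cut into granulins inside lysosomes, had changes of -0.02, 0.12 and -0.07 and a mean of 0.01 ± 0.07.

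Tfe3, a driver of lysosomal gene transcription, rose in each of the 3 responses by a small amount. Its level was 20.5, 22.5, 24.1, 22.2 and 22.1 CPM in control and between 22.9 and 29.4 CPM, with a median of 26.2 CPM, in light damage. Control 4 lay within the range of light damage. The change was 0.22 ± 0.07 (1.17-fold, edgeR adjusted p = 0.0175), and without control 1 it was 0.19 (edgeR adjusted p = 0.0612).

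In vehicle Tfe3 was 20.03, 22.7, 24.6, 22.4 and 21.6 CPM and in vehicle plus light 26.2, 30.1, 22.8, 26.3 and 24.0 CPM. In nanoceria it was 20.2, 21.2, 21.9 and 21.8 CPM and in nanoceria plus light 24.8, 26.2, 27.8, 24.3 and 23.9 CPM. The nanoceria groups did not overlap, and vehicle plus light 3 and 6 lay within the range of vehicle. The changes were 0.22 ± 0.07 (edgeR adjusted p = 0.0367) and 0.26 ± 0.08 (edgeR adjusted p = 0.0243). The first change did not pass when vehicle 1, 2, 4 or 7, or 1, 2 or 4 of vehicle plus light, was left out (edgeR adjusted p from 0.0539 to 0.154), with the size factors of DESeq2 (0.0527), without a filter (0.0504), with near-identical pairs summed (0.065) and with the groups fitted alone (0.142). The second ended without nanoceria 1 or 2 or nanoceria plus light 3 (edgeR adjusted p from 0.0633 to 0.0827), with the size factors of DESeq2 (0.0609) and with the groups fitted alone (0.0861). The mean of the 3 responses, 0.23 ± 0.04 (edgeR adjusted p = 5.74e-05), was called under every alternative run, with an edgeR or DESeq2 adjusted p of at most 0.000196.

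Tfeb, the related factor, had changes of 0.11 ± 0.11, 0.20 ± 0.12 and 0.21 ± 0.12, none called, and a mean of 0.17 ± 0.07 (edgeR adjusted p = 0.0435). This call held in 11 of 31 fits with 1 library left out, those without control 4 or 6, light damage 2 or 3, vehicle 1 or 3, vehicle plus light 6, nanoceria 2 or nanoceria plus light 2, 3 or 5, and ended in the other 20 (edgeR adjusted p up to 0.0829). It also ended with the size factors of DESeq2, without a filter, by the Wald test of DESeq2, with the replicate block and with near-identical pairs summed (adjusted p from 0.052 to 0.0767). Nanoceria plus light held both the highest and the lowest library of the 31, 27.8 CPM in replicate 1 and 13.9 CPM in replicate 5. These are transcript levels, and entry of the proteins into the nucleus was not measured.

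Sqstm1, the p62 receptor that ties ubiquitinated cargo to autophagosomes and is itself degraded with it, was 551, 415, 532, 371 and 350 CPM in control and 413 to 511 CPM in light damage. The groups overlapped, and the changes were -0.03, -0.09 and 0.02 in the 3 responses, with a mean of -0.03 ± 0.06 (95% interval -0.16 to 0.09). Of 29 other autophagy genes, 1 rose and 4 fell in light damage against control, beside 11.9% of all genes higher and 10.6% lower. Optn, another cargo receptor, had a change of -1.11 ± 0.10 (edgeR adjusted p = 3.84e-09); its level was 339 to 495 CPM in control and 168 to 204 CPM in light damage. Wipi2, which acts in autophagosome formation, rose by 0.32 ± 0.06 (edgeR adjusted p = 0.000217). In the mean of the 3 responses 5 autophagy genes rose and 7 fell, with a median of 0.00. Over all genes, 20.5% rose and 16.6% fell in that mean.

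Other lysosomal genes that were not in the set moved in either direction as well. Of 30 other lysosomal enzymes, 1 rose and 5 fell in light damage against control (median -0.13), beside 11.9% of all genes higher and 10.6% lower. Galns, the galactosamine sulfatase lost in Morquio syndrome, rose by 0.91 ± 0.18 (edgeR adjusted p = 0.000447), with 13.4 to 14.7 CPM in control and 24.1 to 28.7 CPM in light damage, and the thioesterase Ppt2 changed by -0.37 ± 0.07 (edgeR adjusted p = 0.000111). Of 25 other membrane proteins 3 rose and 2 fell, among them the iron transporter Slc11a2 (0.40 ± 0.08, edgeR adjusted p = 0.000485) and the endolysosomal cation channel Tpcn1 (-0.33 ± 0.06, edgeR adjusted p = 7.93e-05). In the mean of the 3 responses these lists had 2 higher and 5 lower enzymes, and 6 higher and 3 lower membrane proteins. Over all genes, 20.5% rose and 16.6% fell in that mean. Slc11a2 was at 0.53 ± 0.05 and Laptm4b, a relative of Laptm5, at -0.50 ± 0.07 (edgeR adjusted p = 1.66e-09 and 2.23e-06).

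Of 21 genes of hydrolase delivery and of the control of TFEB, 2 rose and 3 fell in light damage against control, and 5 rose and 5 fell in the mean. Over all genes, 22.5% were called in light damage and 37.1% in the mean. Sort1, a receptor that sorts hydrolases to lysosomes, changed by -0.36 ± 0.07 in light damage (edgeR adjusted p = 0.000441) and by -0.37 ± 0.05 in the mean (edgeR adjusted p = 1.29e-07). Flcn, folliculin, which promotes retention of TFEB and TFE3 outside the nucleus, changed by -0.25 ± 0.04 in light damage (edgeR adjusted p = 3.24e-05). Rptor, the raptor subunit of mTORC1, the kinase complex that phosphorylates TFEB, changed by -0.34 ± 0.04 in the mean (edgeR adjusted p = 9.63e-08).

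**Figure D3:**
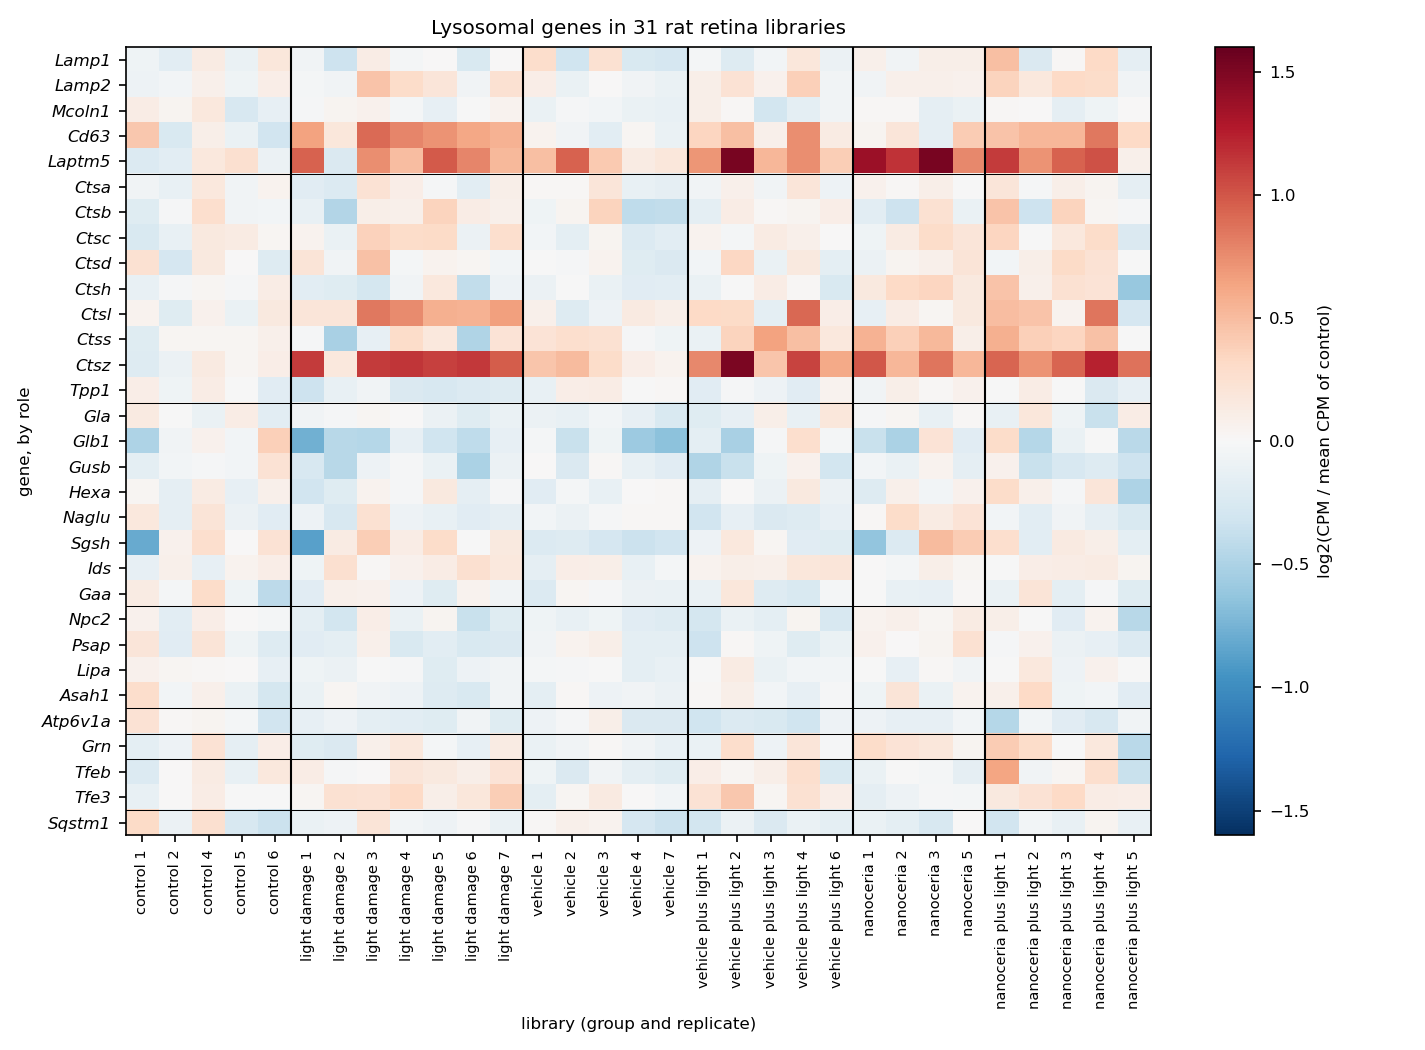
Level of the 31 lysosomal genes (rows, by role) in each of the 31 libraries (columns, by group) as log2 of the CPM over the mean CPM of control; red is above and blue below that mean. The rows of Cd63, Ctsl, Ctsz and Laptm5 carry most of the colour, and most other rows stay pale in all 6 groups.

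Over the 31 libraries the spread of the set was set beside that of genes above a minimum level. Those genes were not matched to the set for level, and 30 of the 31 genes reached the minimum. The highest level of a gene over its lowest had a median of 1.64 among the 31 genes, beside 1.71 among 11034 genes with a mean of at least 10 CPM. The ratio was under 2 for 23 genes (74.2%, beside 65.5% of those 11034 genes), from 2 to 3 for 6, and over 3 for Laptm5 (3.38) and Ctsz (3.28). In the heat map, the deepest blue cells of Sgsh are those of light damage 1 and control 1, with 1.47 and 1.54 CPM, and nanoceria 1, with 1.74 CPM.

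Injection of vehicle without light called 0 of the 31 genes by edgeR, beside 0.0221% of all genes (0.0111% in each direction); 1 was at an unadjusted p under 0.05, and DESeq2 also called 0. That gene was Laptm5, 0.46 ± 0.22 (edgeR adjusted p = 0.613), with vehicle 2 at 25.4 CPM above the others at 14.5 to 18.3 CPM. Vehicle 2 also had the highest microglia and macrophage share of its group, 0.0605%. The 31 changes lay between -0.32, in Glb1, and 0.46, with a median of -0.06 (all genes -0.03), and 27 of 31 intervals lay within 1.5-fold. The wider ones were those of Ctsz, Laptm5, Glb1 and Sgsh. The groups overlapped for every gene of the set, where 1.44% of all genes had groups apart. Lens transcripts were higher in vehicle on average without passing the test: 18 of 18 lens genes had a positive change, all 18 at an unadjusted p under 0.05 and 0 called by edgeR, with a median of 2.39. Their summed share was 0.497% to 3.46% of counts in vehicle, 0.0687% to 0.888% in control and 0.314% to 0.658% in vehicle plus light. After vehicle, light gave 17 of 18 negative changes in that list, 2 of them called, with a median of -2.32. The part of lens RNA in the values of the lysosomal genes was not tested.

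Nanoceria without light raised Laptm5 and Ctsz against control, and no other gene of the set passed. The 2 calls are 6.45% of the set, against 2.46% of all genes (1.73% higher and 0.73% lower); that background of 445 genes was 205 to 293 genes without control 2 or 4 or nanoceria 1, 2 or 3. The groups differ in the injection as well as in the particles. Laptm5 was 34.1, 29.4, 37.9 and 22.4 CPM in nanoceria, every value above the 11.4 to 15.7 CPM of control. The change was 1.23 ± 0.23 (2.35-fold, edgeR adjusted p = 0.00462) and stayed called with any 1 library left out (1.12 to 1.36, edgeR adjusted p of at most 0.0234). Ctsz, at 26.2 to 35.9 CPM in nanoceria and 15.7 to 19.9 CPM in control, rose by 0.74 ± 0.18 (1.67-fold, edgeR adjusted p = 0.0215). Its call ended without control 1 or 2 or nanoceria 1 or 3 (edgeR adjusted p from 0.0543 to 0.102) and with the replicate number as a block, where Laptm5 was the 1 call left.

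In the same comparison the microglia and macrophage list had 15 of 20 genes higher and 0 lower, with a median of 1.08. Aif1 rose by 1.13 ± 0.21, Cx3cr1 by 1.04 ± 0.24 and Csf1r by 0.74 ± 0.17. Their summed share did not overlap between control (0.0284% to 0.0390%) and nanoceria (0.0536% to 0.0790%), and its part in the change of Laptm5 and Ctsz was not tested. Ctss and Ctsh also had no overlap between the groups, which makes 4 of 31 genes with Laptm5 and Ctsz, against 7.26% of all genes. Ctss was 30, 26.6, 29.2 and 21.8 CPM in nanoceria (0.40 ± 0.15, edgeR adjusted p = 0.199) and Ctsh 127, 143, 145 and 127 CPM, against 105 to 124 CPM in control (0.25 ± 0.13, edgeR adjusted p = 0.383). Of the 29 genes not called, 28 had an interval within 1.5-fold, the exception being Ctss. The median over the 31 genes was 0.04, beside -0.04 over all genes.

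**Figure D4:**
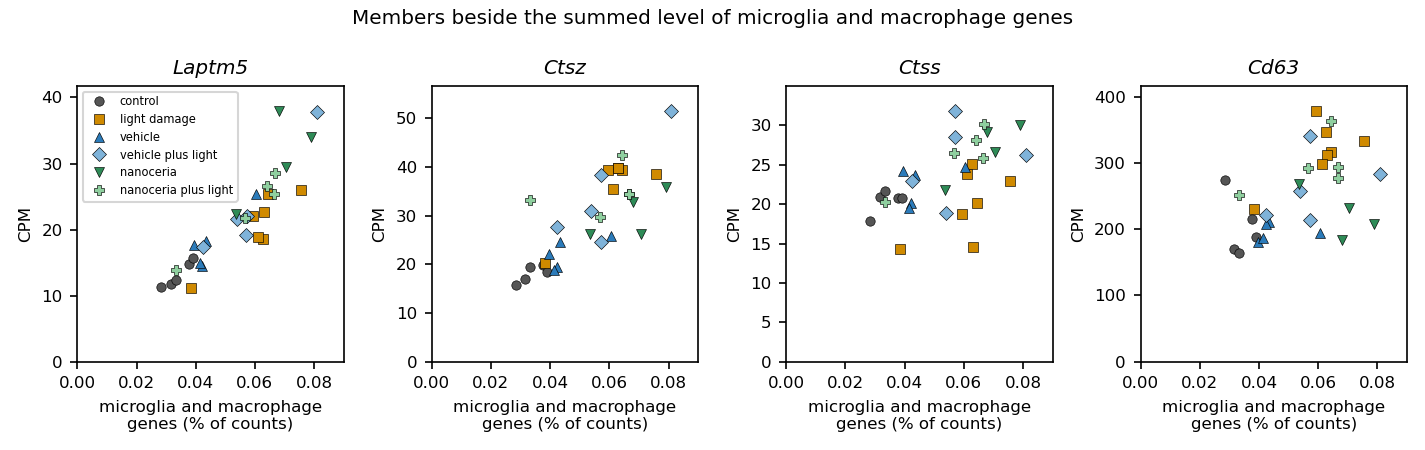
CPM of Laptm5, Ctsz, Ctss and Cd63 (y axes) against the summed share of 20 microglia and macrophage genes in percent of counts (x axes), 1 point per library, with colour and shape by group. Control libraries sit at the lower left of the Laptm5 and Ctsz panels, and vehicle plus light 2, with the highest share (0.0809%), has 37.8 CPM of Laptm5 and 51.5 CPM of Ctsz.

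Other lysosomal genes showed 2 calls in nanoceria against control among the 94 tested in the lists of enzymes, membrane proteins, V-ATPase and delivery. Over all genes, 2.46% were called. Slc11a1, a metal transporter of phagosomes in macrophages, rose by 1.02 ± 0.25 (edgeR adjusted p = 0.0254). Galns had a log2 fold change of -0.83 ± 0.21 (edgeR adjusted p = 0.0257), with 6.598 to 10.2 CPM in nanoceria and 6.34 to 15.1 CPM in vehicle. Of the autophagy genes 0 of 29 were called by edgeR.

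Against vehicle, nanoceria called 0 of the 31 genes and 0% of all genes by edgeR, and DESeq2 also called 0 of the 31. At an unadjusted p under 0.05 were 7 genes: Laptm5 (0.77 ± 0.23, edgeR adjusted p = 0.425), Ctsh (0.36 ± 0.13, 0.551), Ctsz (0.45 ± 0.18, 0.683), Ctsc (0.25 ± 0.11, 0.768), Naglu (0.19 ± 0.08, 0.768), Npc2 (0.20 ± 0.09, 0.831) and Grn (0.25 ± 0.12, 0.875). Of the 31 genes 27 had a positive change, beside 43.8% of all genes, and the median was 0.09 (all genes -0.02). Against control, 5 of the 31 were positive in vehicle (42.8% of all genes) and 19 in nanoceria (41.2% of all genes). In nanoceria plus light against vehicle plus light 26 were positive, beside 50.4% of all genes. Ctsz, Npc2, Ctsh and Grn did not overlap between the groups, 4 of 31 genes, against 3.22% of all genes. Of the 20 microglia and macrophage genes, 0 were called by edgeR and 14 were at an unadjusted p under 0.05, with a median of 0.56. Against control, Laptm5 and Ctsz were positive in vehicle too, and the other 5 of these 7 genes were negative there, as the plot of changes without light shows.

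**Figure D5:**
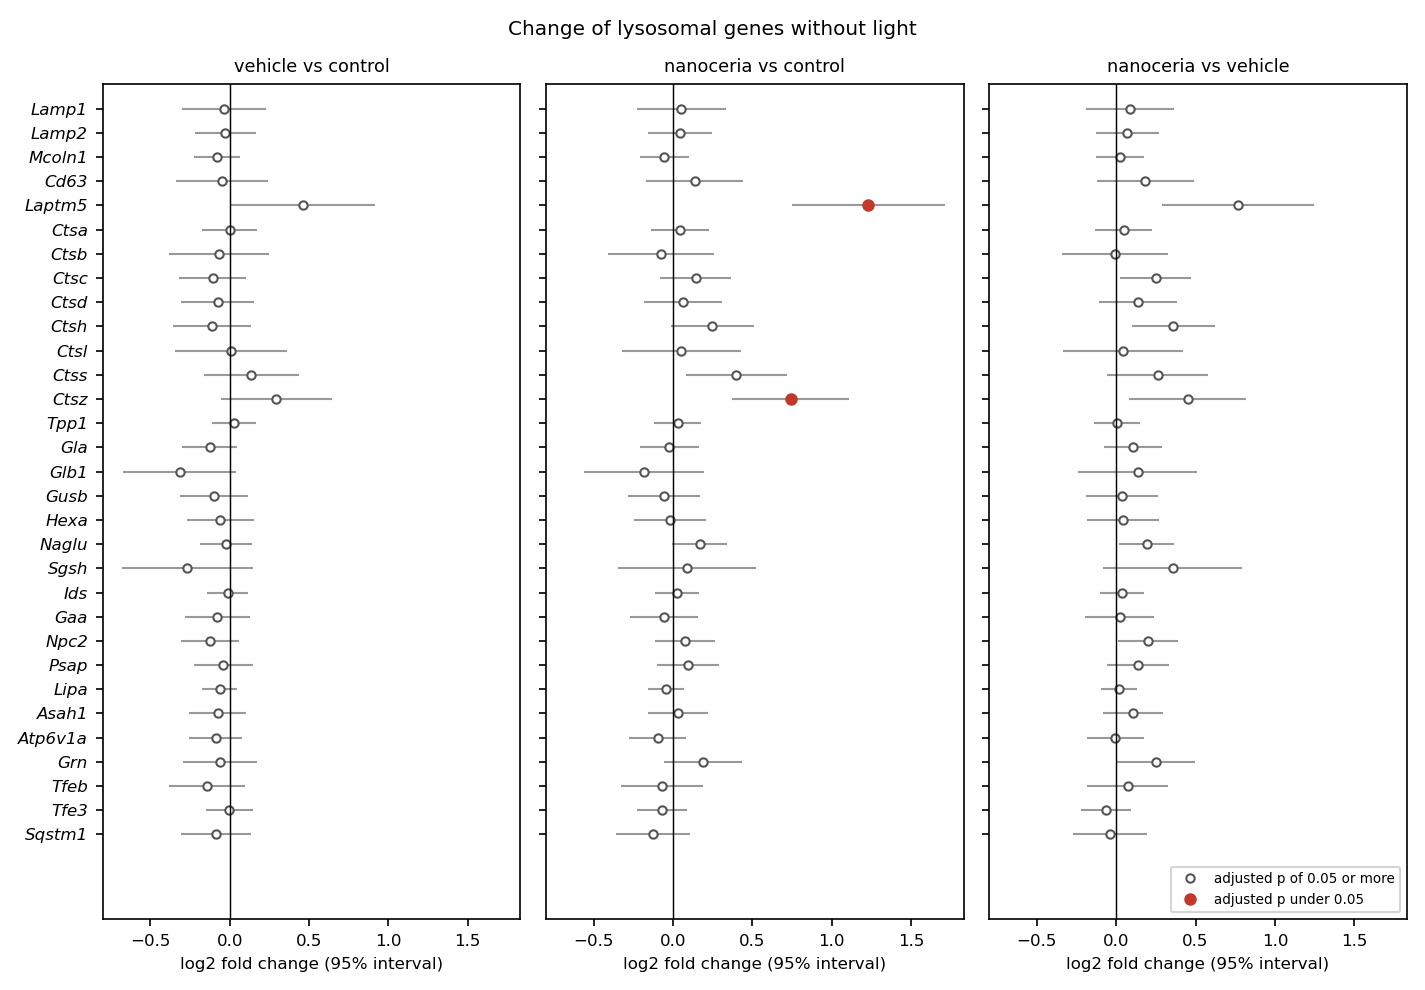
Log2 fold change with its 95% interval (x axis) for the 31 lysosomal genes (y axis, by role) without light, in vehicle against control, nanoceria against control and nanoceria against vehicle; filled red points have an edgeR adjusted p under 0.05. Laptm5 (1.23) and Ctsz (0.74) are the 2 filled points, both in nanoceria against control.

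Among light-exposed animals no gene of the set was called between treatments. Nanoceria plus light against vehicle plus light had 0 of 31 calls by edgeR (0% of all genes), 0 by DESeq2 and 0 at an unadjusted p under 0.05. The changes lay between -0.04, in Glb1, and 0.17, in Cd63 (0.17 ± 0.14), and all 31 intervals lay within 1.5-fold. The widest was that of Laptm5, from -0.47 to 0.43. For Ctsz the difference was 0.01 ± 0.17 (95% interval -0.34 to 0.36) and for Tfe3 -0.03 ± 0.07 (-0.18 to 0.12). These intervals bound the differences and do not show that the groups were alike.

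Vehicle plus light against light damage had 0 of 31 calls by edgeR (0.122% of all genes) and by DESeq2, with Ctss at an unadjusted p under 0.05 (0.37 ± 0.13, edgeR adjusted p = 0.416). Nanoceria plus light against light damage had 0 of 31 (0.0608% of all genes, 0.0276% higher and 0.0332% lower) and 0 by DESeq2, with 4 at an unadjusted p under 0.05: Ctss (0.40 ± 0.13, edgeR adjusted p = 0.419), Tpp1 (0.15 ± 0.06, 0.592), Ctsh (0.26 ± 0.11, 0.64) and Lipa (0.11 ± 0.05, 0.699). Both comparisons share the light damage libraries. Ctss was 14.3 to 25.1 CPM in light damage, 18.9, 26.2, 31.8, 28.5 and 22.9 CPM in vehicle plus light, and 30.2, 26.5, 25.8, 28.2 and 20.3 CPM in nanoceria plus light. The groups overlapped, as they did for every gene of the set in both comparisons, where 0.967% and 0.525% of all genes did not.

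The response to light was compared between treatments with 2 interaction tests. Between vehicle and uninjected animals 0 of 31 genes were called by edgeR (0.0442% of all genes) and by DESeq2, and 1, Glb1, was at an unadjusted p under 0.05. Between nanoceria and vehicle animals 0 were called (0% of all genes, and 0 of the 31 by DESeq2), and 1, Laptm5, was at an unadjusted p under 0.05, at -0.79 ± 0.32 (edgeR adjusted p = 1). Laptm5 was higher without light in nanoceria than in control, as given above. From nanoceria to nanoceria plus light, where the 5 libraries were 28.5, 21.7, 25.5, 26.6 and 13.9 CPM, its change was -0.41 ± 0.23 (edgeR adjusted p = 0.274). The lowest of these, nanoceria plus light 5, also had the lowest microglia and macrophage share of its group, 0.0334%, and its part in this difference was not tested. Intervals within 1.5-fold held for 24 of 31 genes in the first interaction and 26 of 31 in the second, and Ctss, Ctsz, Laptm5, Glb1 and Sgsh were wider in both.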

How the data were processed

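PolyA RNA of rat retina was measured in 42 labelled samples, of which 31 had a column of their own in the count file, 4 to 7 in each of 6 groups; the other 11 were not analysed here. The deposited values are raw counts of reads per gene. Per the submitters' processing notes, the authors used Trimmomatic 0.39, STAR 2.7.9a, featureCounts of Subread 2.0.1, DESeq2 1.30.1 and R 4.0 with build rn6; the strand setting and annotation release were not given in the sources used here, so reads of overlapping or antisense genes and of near-identical copies may be mixed. Total counts were 25158407 to 182162368 per library. The lowest count of any of the 31 genes was 30.

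Groups were taken from the labels. Genes were filtered with filterByExpr of edgeR 4.0.16 (minimum count 10, minimum total 15; 18094 kept, 14529 left out), scaled by TMM and tested in 1 quasi-likelihood fit over all 31 libraries in R 4.3.3, with 1 coefficient per group and no covariate. There were 9 pairwise comparisons, 2 interactions and the mean of the 3 responses to light. Adjusted p-values are Benjamini-Hochberg values over all 18094 genes, and a gene was called under 0.05. Intervals are 95% intervals. All 31 genes are named. Of each other list, the 2 called genes with the smallest adjusted p are named. This was done in light damage against control, in the mean response and in nanoceria against control. Of markers, the first 3 of a list are named. Further markers (P2ry12, Tmem119, Elane, Mpo, Csf3r, Camp, Cxcr2) were named after their values were seen. The gene set, the lists and the comparisons were chosen with earlier results of these data known. Fits were tested on simulated data. The rod list as a whole is not reported here. Alternatives were DESeq2 1.42.0 size factors or library size alone, no filter, the Wald test of DESeq2, a replicate block, a term for sex from Y-linked counts, near-identical pairs summed, only the groups compared, and each library left out.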

Additional observations from a re-analysis of the deposited data

Results flagged for a closer look

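Of 186 combinations of gene and group, 9 had a highest or lowest library that stood apart from the rest of its group, where chance gives about 1 in 20, or 9.3. In light damage, replicate 3 was high for Naglu (32.5 CPM, the others 23.0 to 25.8), Psap (1845, the others 1474 to 1563) and Sqstm1 (511.4, the others 413 to 438). Replicate 2 was low for Ctsz (20.4 CPM, the others 35.5 to 39.9), and replicate 1, the shallowest library, was low for Sgsh (1.468 CPM, the others 2.67 to 3.53). In vehicle plus light, replicate 2 was high for Laptm5 (37.8 CPM, the others 17.3 to 22.1). In nanoceria, replicate 2 was low for Lamp1 (368.7 CPM, the others 406 to 411) and replicate 1 for Lamp2 (132.1 CPM, the others 144 to 146). In control, replicate 1 was low for Ctss (17.9 CPM, the others 20.8 to 21.6).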

How the results depend on the processing

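The number of lysosomal genes called was 6 in light damage against control, 3 after vehicle, 2 after nanoceria, 12 in the mean response to light, 2 in nanoceria against control and 0 in the other 7 tests. No log2 fold change of a called gene changed sign under any alternative run. With 1 library left out, the counts ranged from 4 to 6, 0 to 3, 0 to 3, 8 to 12 and 1 to 2, and stayed 0 in the other 7. After vehicle the count was 1 with the size factors of DESeq2 and 1 with near-identical pairs summed; after nanoceria it was 1 with those size factors and 0 with only the groups compared. With the replicate number as a block, nanoceria against control had 1 call, Laptm5 (Ctsz then had an edgeR adjusted p of 0.0679), and the mean response had 9, 6 higher and 3 lower. Same-numbered libraries share a replicate number, and the S numbers in their column names also run in sequence. What else they share was not given. Deviations of same-numbered libraries correlated above 0.1 in 2 of 5 pairs of light damage and control, 1 of 4 after vehicle and 2 of 4 after nanoceria. In the same order, 2 of 5, 1 of 4 and 3 of 4 correlated best with their own number. The block changed no other count of lysosomal genes called by over 1.5 times. Over all genes, the interaction of light and vehicle had 8 calls, and 5 with the block. Of 25 calls, 18 held with library size alone, 20 with the size factors of DESeq2, 24 with its Wald test, 23 without a filter and 25 with a term for sex. The cause of these shifts was not tested. The mean response uses all groups, so fitting only the groups compared gives no other value for it. Over all genes, 2520 were called after nanoceria, and 1107 with only the groups compared; nanoceria against control had 445, 184 with the block, 727 by the Wald test, and 205, 236, 227, 251 and 293 without nanoceria 1, 2 or 3 or control 2 or 4. Depth limits Sgsh most, whose lowest count was 30.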

Other observations

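Galns, a lysosomal sulfatase outside the set of 31 genes, differed between light-exposed groups. Its level was 24.1 to 28.7 CPM in light damage, 9.04 to 15.5 CPM in vehicle plus light and 11.5 to 23.8 CPM in nanoceria plus light. Neither injected group overlapped with light damage, where 0.967% and 0.525% of all genes had groups apart. Without light, Galns was also lower in nanoceria than in control (-0.83 ± 0.21, edgeR adjusted p = 0.0257). Vehicle plus light against light damage had a log2 fold change of -1.03 ± 0.18 (edgeR adjusted p = 0.0093), and nanoceria plus light against light damage of -0.67 ± 0.18 (0.2). Galns was singled out after its values were seen.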
